A study of Mus musculus with 12 samples.

Results

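The endothelial marker genes described here are Pecam1, Cdh5, Esam, Kdr, Flt1, Tek, Tie1, Eng, Emcn and Vwf, 10 genes that are widely used to recognise the cells lining blood vessels. They were chosen by gene symbol, as the array probes whose gene name in the files is one of these symbols. That rule gave 12 of the 39429 probes that are not controls, and 10 of the 31131 gene names and unnamed features on the array. Kdr and Flt1 had a pair of probes each, and the other members had 1 probe. Of the 20370 genes and features that were bright enough to test, 9 were members. Tie1 was left out of the test because its probe was well above background on 3 of 12 arrays, and it is described separately.

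The arrays measured RNA of macrophages sorted from pancreatic tumours of female mice, 8 to 10 weeks of age, of the C57/B6 background, that had been implanted with tumours. There were 6 arrays of YFP+ macrophages and 6 arrays of YFP- macrophages. All 12 samples shared the implanted tumour and the sort by flow cytometry into lysis buffer. The sample labels do not provide the genotype; the series text names wild-type, KPC and FLT3-CRE/LSL-YFP mice without tying them to arrays. In a FLT3-CRE/LSL-YFP animal, Cre is driven by Flt3, a receptor of blood progenitors, and a cell that has expressed it leaves YFP-labelled progeny. Each YFP+ title shares a tumour identifier with 1 YFP- title, so that the samples read as positive and negative sorts of the same 6 tumours; these are called tumours 1 to 6 below. The labels do not say whether each tumour came from an animal of its own, so the p-values take in only how these samples vary, and that variation may be technical. No normal endothelium was set beside the tumour macrophages.

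Endothelial cells are held together by junction proteins, of which PECAM-1, VE-cadherin (Cdh5) and ESAM are members. They read growth signals through the VEGF receptors (Kdr and Flt1) and the angiopoietin axis (Tek and Tie1), and they carry endoglin, endomucin and von Willebrand factor. Cdh5 and Tie1 are largely restricted to endothelium, whereas several of the other genes are also used by blood cells. Pecam1 is carried by platelets and many leukocytes, Vwf by platelets and megakaryocytes, Eng and Flt1 by monocytes and macrophages, and Tek by a subset of monocytes. The level of such a gene in a macrophage sort therefore has more than 1 possible cellular source, and in bulk RNA fewer cells of a type and less RNA per cell cannot be told apart.

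The array reads each gene through a probe of 60 bases, and the sequences are shown because the level of a gene is only the signal of that stretch. Positions are on the mouse mm9 build as the file headers give them. The Pecam1 probe lies at chr11:106540864-106540923 on the minus strand, the Emcn probe at chr3:137086389-137086448 on the plus strand and the Vwf probe at chr6:125636551-125636610 on the plus strand. The annotation of exons and untranslated regions for mm9 was not used here.
Pecam1: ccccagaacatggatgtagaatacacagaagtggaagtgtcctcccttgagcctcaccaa
Emcn: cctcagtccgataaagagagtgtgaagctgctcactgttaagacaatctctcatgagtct
Vwf: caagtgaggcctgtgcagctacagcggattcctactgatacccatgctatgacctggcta

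Tek and Tie1 encode related receptors, and their probes are shown together because they come from matching stretches. The Tek probe lies at chr4:94540624-94540683 on the plus strand and the Tie1 probe at chr4:118144132-118144191 on the minus strand. With the Tie1 probe set 3 bases further along, 39 of 57 overlapping bases, or 68.4%, were identical; these are the capitals. Whether RNA of one gene gives signal at the probe of the other was not tested.
Tek: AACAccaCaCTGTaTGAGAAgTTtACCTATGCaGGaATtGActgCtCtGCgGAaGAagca
Tie1: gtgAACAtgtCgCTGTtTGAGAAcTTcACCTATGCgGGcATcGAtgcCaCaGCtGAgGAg

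Levels below are log2 of the deposited processed signal minus the array's 75th percentile of signal, called the relative signal, and differences are YFP+ minus YFP-. The unscaled 75th percentile was 3252 to 3913 on the YFP+ arrays and 2100 to 3357 on the YFP- arrays, so that the YFP+ arrays were the brighter ones before scaling. Macrophage markers were present in both groups: all 16 listed ones were well above background on all 12 arrays, and their median difference was -0.13. Of their differences 14 were negative and 2 positive, where 52.8% of all genes had a negative one. The arrays lay on 3 slides, each with 2 arrays of each group.

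No endothelial marker passed the test between YFP+ and YFP- macrophages. With limma and Benjamini-Hochberg adjustment over all tested genes, 0 of 9 members had an adjusted p under 0.05, where 1.75% of all 20370 genes did. At an unadjusted p under 0.05 there was 1 of 9, Eng, against 11.2% of all genes (3.73% higher and 7.51% lower in YFP+). The calls over the whole array ran mostly downward, with 68 genes higher and 288 lower in YFP+ macrophages; centring on the array median in place of the 75th percentile gave 116 higher and 230 lower and moved the median of all genes by 0.21. The members were lower in YFP+ for 5 genes and higher for 4, where 52.8% of all genes were lower, with a median difference of -0.10 beside -0.03 over all tested genes. The groups overlapped for every tested member, where 1.88% of all genes had groups that did not.

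**Figure D1:**
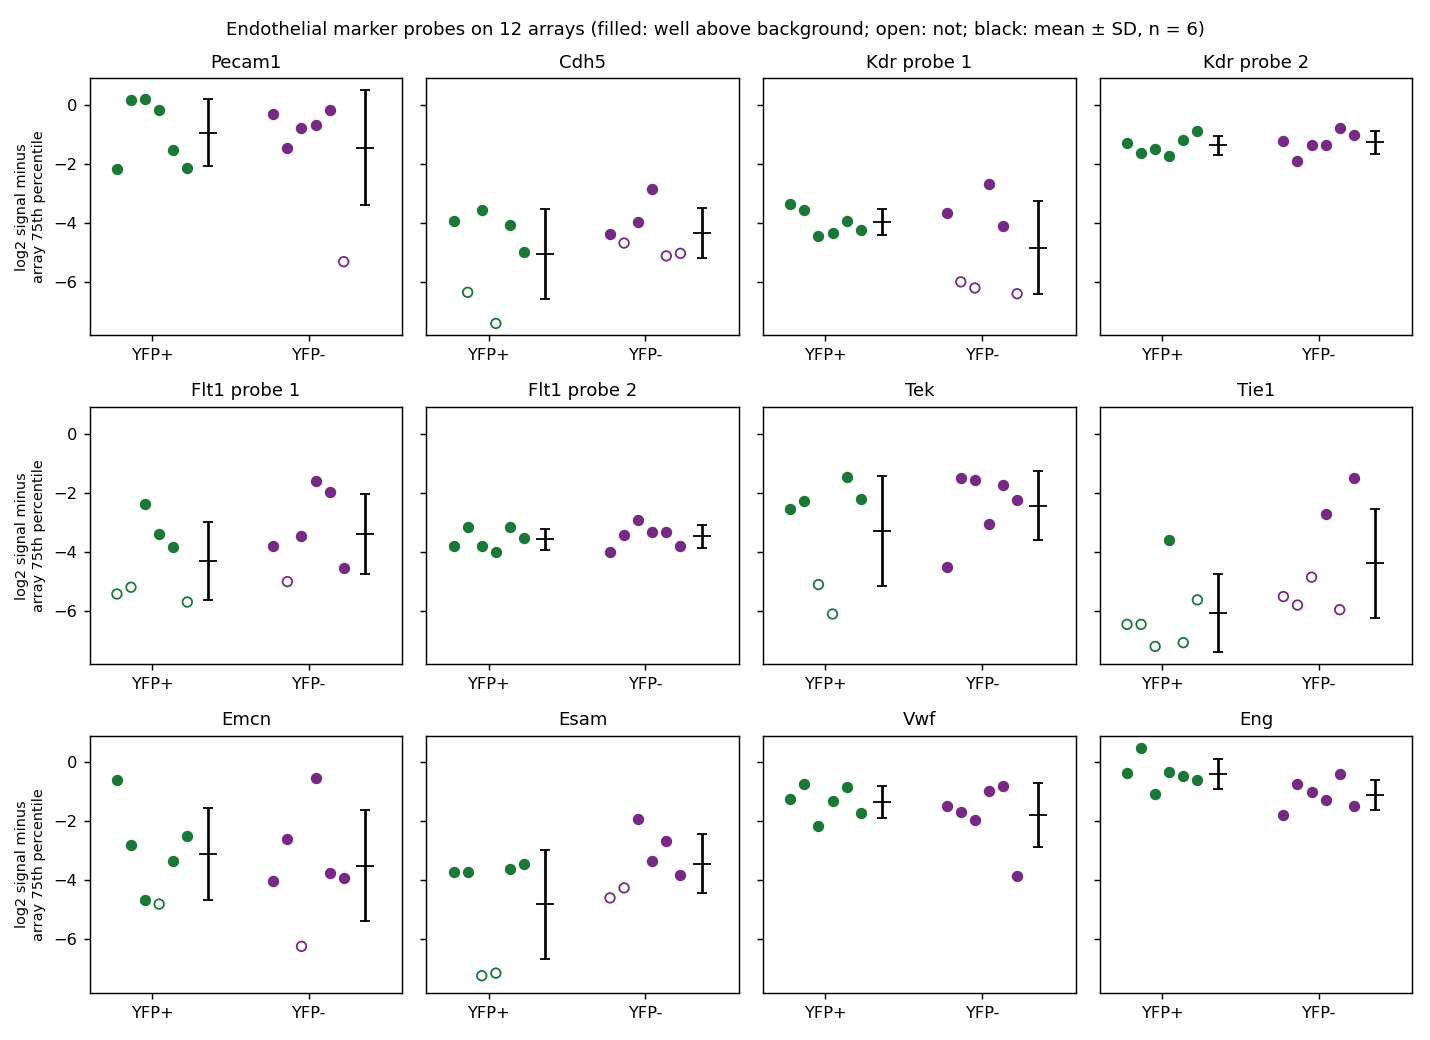
Relative signal (log2 processed signal minus the array's 75th percentile) of each endothelial marker probe, 1 point per array, YFP+ left and YFP- right in each panel, tumours 1 to 6 from left to right within a group, open points not well above background and bars the group means. The 2 groups overlap in every panel, and Eng has the YFP+ mean above the YFP- mean with 12 of 12 arrays above background.

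Eng, endoglin, a co-receptor for ligands of the TGF-beta family, was the member with the smallest p. The YFP+ arrays had relative signals of -1.07 at the lowest, -0.42 at the median and 0.48 at the highest, against -1.78, -1.14 and -0.40 on the YFP- arrays. All 12 arrays were well above background, and the YFP+ arrays of tumours 1, 2 and 4 lay above the highest YFP- array. The mean was -0.39 ± 0.50 in YFP+ and -1.11 ± 0.50 in YFP- macrophages (SD, n = 6 each), a difference of 0.72 (SE 0.29), which is 1.65-fold. The 95% interval was 0.09 to 1.36, the unadjusted p was 0.029 and the adjusted p from limma was 0.347. Within the 3 slides the difference was 1.19, 0.15 and 0.83, and the adjusted p with the slide as a block was 0.189. The direction was therefore the same on each slide. Within the tumour pairs it was not uniform, with YFP+ higher in 4 pairs and lower in 2. The gene did not pass the test.

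Among the junction genes, Pecam1, a homophilic adhesion molecule, was detected on 11 of 12 arrays and was very uneven within both groups. The YFP+ arrays ran from -2.18 through a median of -0.85 to 0.17, and the YFP- arrays from -5.32 through -0.73 to -0.17. The lowest value was 1 array, the YFP- array of tumour 6, where the processed signal of 68.1 was not well above background; the other 5 YFP- arrays had 842 to 2700. On the YFP+ arrays the values fell apart too, with 3422 to 4356 for tumours 2, 3 and 4 and 764 to 1122 for tumours 1, 5 and 6. The difference was 0.51 (SE 0.84, adjusted p from limma 0.897). Without the YFP- array of tumour 6 it was -0.27, so that this array alone set the direction. Within slides it was 2.06, -1.04 and 0.50.

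Cdh5 encodes VE-cadherin, the adherens-junction cadherin of endothelium, and its probe was close to background. It was well above background on 4 of 6 YFP+ and 3 of 6 YFP- arrays. Relative signals were -7.42, -4.54 and -3.58 (lowest, median and highest) on YFP+ arrays, against -5.13, -4.53 and -2.87 on YFP- arrays. The medians nearly coincided, and the lowest YFP+ values were those of tumours 2 and 4, at 43.8 and 22.6 in processed signal. The value of tumour 4 was a surrogate, which the extraction software sets for signal too near background. The difference was -0.71 (SE 0.65, 95% interval -2.14 to 0.71, adjusted p from limma 0.779), and within slides it was -1.17, 0.90 and -1.88. Without the YFP+ array of tumour 4 it was -0.24, so that 1 array carried most of it.

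Esam, a tight-junction adhesion molecule of endothelium and platelets, had the most negative difference among the tested members and was above background on 4 of 6 arrays in each group. Relative signals were -7.23, -3.72 and -3.46 on YFP+ arrays, against -4.59, -3.58 and -1.93 on YFP- arrays. The YFP+ arrays of tumours 3 and 4 stood apart at processed signals of 25.7 and 27.3, whereas the other 4 YFP+ arrays had 260.5 to 357. On the arrays of tumours 3 and 4 the value was a surrogate and no measured level. Those 2 arrays were the YFP+ arrays of the third slide, whose YFP- arrays, of tumours 1 and 4, had 138 and 265. The difference was -1.38 (SE 0.78, 95% interval -3.08 to 0.32, adjusted p from limma 0.572), and it was negative on each slide at -0.71, -0.20 and -3.22. Without the YFP+ array of tumour 3 or that of tumour 4 it was -0.90 or -0.91.

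Kdr encodes VEGFR2, the main signalling receptor for VEGF-A. The probe used for the gene, at chr5:76330395-76330454, was well above background on all 12 arrays. Its relative signals were -1.75, -1.41 and -0.89 on YFP+ arrays, against -1.90, -1.29 and -0.79 on YFP- arrays. The ranges nearly coincided, and the difference was -0.10 (SE 0.22, adjusted p from limma 0.931). The 95% interval of -0.59 to 0.38 was the narrowest of the 9 members, and the sign turned with median centring, where the difference was 0.11. Within slides it was -0.07, 0.09 and -0.33.

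The other Kdr probe, at chr5:76329309-76329368 and 1086 bases away, is printed at 10 spots per array and gave a different picture. On the YFP+ arrays it was well above background throughout, with processed signals of 177 to 337. On the YFP- arrays of tumours 1, 4 and 5 it had 263, 415 and 154, and on those of tumours 2, 3 and 6 it had 36.3, 28.6 and 32.1, with 0 spots above background. The spots of an array agreed more closely than the arrays of the YFP- group. On log2 of the unscaled processed signal, the median SD between spots was 0.20. The SD between arrays was 0.38 in YFP+ and 1.71 in YFP- on that scale, and 0.44 and 1.57 in relative signal. On the 3 dim arrays, 5 or more of the spots carried a surrogate value that the extraction software sets for signal too near background. In the fit of every probe the difference was 0.86 (95% interval -0.49 to 2.21, adjusted p from limma 0.479). Across arrays, centred within groups, the values of the 2 Kdr probes had a Pearson r of 0.17, so the gene's pattern depended on which probe was read.

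**Figure D2:**
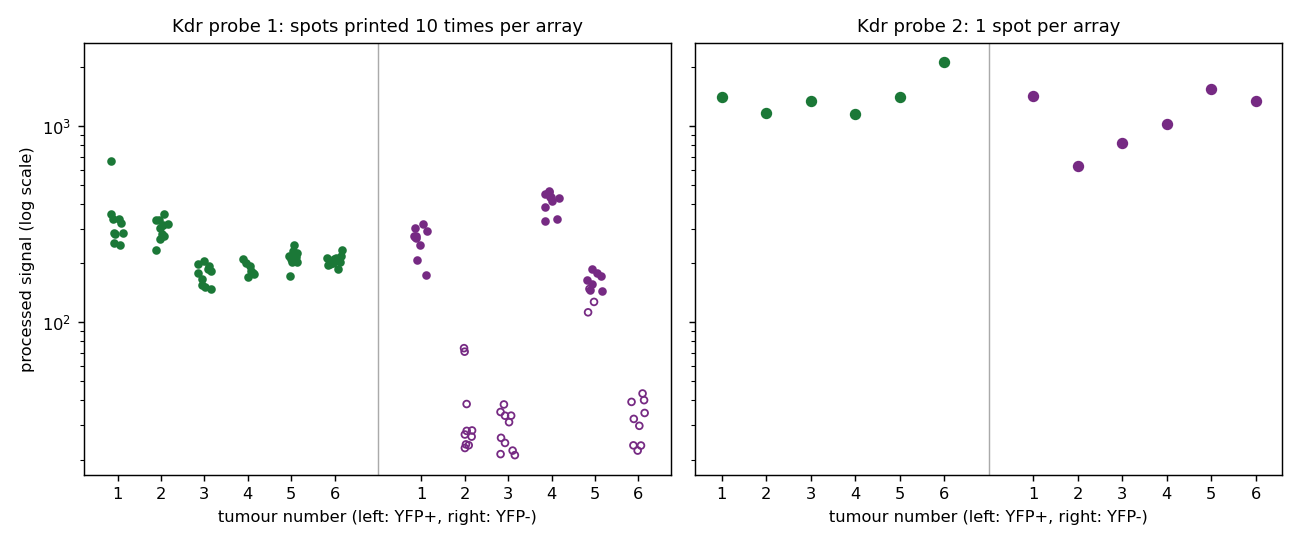
Processed signal (log axis) of each usable spot of the Kdr probe that is printed 10 times, by array, YFP+ arrays left and YFP- arrays right. The coefficient of variation between spots is 6.23% to 35.6% on the 9 arrays without surrogate values, and the YFP- arrays of tumours 2, 3 and 6 sit at means of 28.6 to 36.3, below the 177 to 337 of the YFP+ arrays.

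Flt1 encodes VEGFR1, which binds VEGF-A, VEGF-B and placental growth factor and also exists as a soluble decoy. The probe used for the gene, at chr5:148465976-148466035, was above background on all 12 arrays. It gave -4.01, -3.67 and -3.16 on YFP+ arrays, against -4.03, -3.39 and -2.93 on YFP- arrays. The groups lay over each other, and the difference was -0.11 (SE 0.23, 95% interval -0.61 to 0.40, adjusted p from limma 0.928). Its sign was not fixed by the data: quantile normalization and the deposited table both gave 0.12, median centring gave 0.10, and leaving out the YFP- array of tumour 3 gave 0.0014. The other Flt1 probe, 92185 bases away at chr5:148373791-148373850, was above background on 3 of 6 YFP+ and 5 of 6 YFP- arrays. Its difference was -0.93 (95% interval -2.50 to 0.65, adjusted p from limma 0.523). Centred within groups, its values had an r of 0.04 with those of the first probe, and 0.63 with the slide removed as well.

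Tek encodes TIE2, the receptor of the angiopoietins. It was above background on 4 of 6 YFP+ and 6 of 6 YFP- arrays. Relative signals were -6.12, -2.42 and -1.48 on YFP+ arrays, against -4.53, -1.99 and -1.50 on YFP- arrays. The arrays below background were the YFP+ ones of tumours 3 and 4, at processed signals of 111 and 55.5, and the other YFP+ arrays had 582 to 1171. The YFP- arrays of the same slide, of tumours 1 and 4, were likewise the lowest of their group, at 144 and 320, so that all 4 arrays of the third slide lay below the other 8. Whether the slide or the tumours set this was not tested. The difference was -0.86 (SE 0.82, 95% interval -2.64 to 0.93, adjusted p from limma 0.791), and within slides it was -0.34, -0.41 and -1.82. Without the YFP+ array of tumour 4 it was -0.29, and without that of tumour 3 it was -0.49.

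Tie1, the orphan receptor that pairs with TIE2, was the dimmest member by detection. It was above background on 1 of 6 YFP+ arrays, tumour 4 at a processed signal of 315, and on 2 of 6 YFP- arrays, tumours 4 and 6 at 404.5 and 966. On the remaining arrays the signal reached at most 78.9 in YFP+ and 72.6 in YFP-. The YFP+ values of tumours 3 and 5 were surrogates. In the fit of every probe the difference was -1.68 (95% interval -3.57 to 0.20, adjusted p from limma 0.275), most of it between values near background, for which it is no measure of a level.

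Emcn, endomucin, a sialomucin of capillary and venous endothelium, had the widest spread of the tested members. Relative signals were -4.80, -3.07 and -0.60 on YFP+ arrays, against -6.23, -3.83 and -0.53 on YFP- arrays. A single array stood highest in each group, tumour 1 in YFP+ with a processed signal of 2285 and tumour 4 in YFP- with 1854. The next highest had 697 in YFP+ and 388.5 in YFP-, and 1 array of each group was not above background. The difference was 0.39 (SE 0.91, adjusted p from limma 0.935). Its sign turned without the YFP+ array of tumour 1 (-0.12), without the YFP- array of tumour 3 (-0.16) and with another background correction, normexp (-0.16). Within slides it was 2.43, 1.19 and -2.46.

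Vwf encodes von Willebrand factor, the adhesive protein stored in endothelial Weibel-Palade bodies and platelet granules, and was well above background on all 12 arrays. Relative signals were -2.16, -1.29 and -0.73 on YFP+ arrays, against -3.84, -1.57 and -0.79 on YFP- arrays. The lowest was again the YFP- array of tumour 6, at a processed signal of 191, where the other YFP- arrays had 553 to 1542. The difference was 0.45 (SE 0.47, 95% interval -0.57 to 1.46, adjusted p from limma 0.811), and within slides it was 1.66, 0.19 and -0.51. Without the YFP- array of tumour 6 it was 0.035, so that this array carried nearly all of it.

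**Figure D3:**
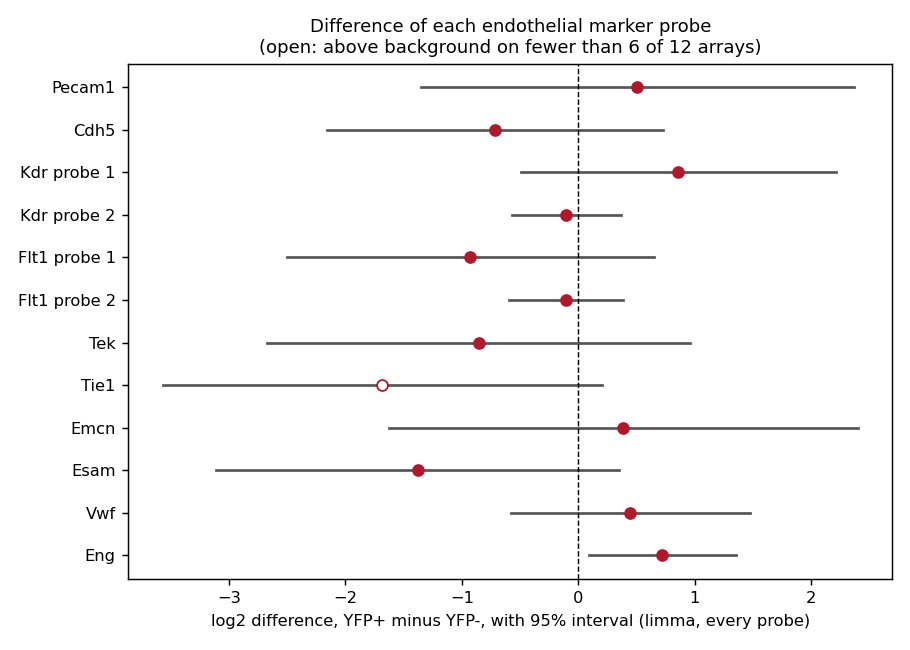
Difference of each endothelial marker probe, YFP+ minus YFP-, on the log2 scale with its 95% interval, from the limma fit of every probe, whose intervals differ slightly from those of the gene fit; the open point is Tie1, above background on fewer than 6 of 12 arrays. All intervals but that of Eng cross 0, and they range from the narrow ones of Kdr probe 2 and Flt1 probe 2 to the wide ones of Pecam1, Tek, Tie1, Emcn and Esam.

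The members differed from most of the array more in their spread than in their group means. Of the 12 member probes, 4 (33.3%) were above background on all 12 arrays and 8 (66.7%) on only some of them; over all probes the shares were 47% and 35.6%, with 17.3% on none. The numbers of detected arrays did not lean to a group: 3 member probes were above background on more YFP+ arrays, 3 on fewer and 6 on equally many, where 17.6% of all probes were on more and 12.3% on fewer. The median within-group SD of the 9 tested members was 1.23 on the log2 scale, beside 0.62 over all tested genes. A wide spread was not particular to them. The lists of mural cell and acinar markers described below had medians of 1.26 and 1.49, and the other lists had 0.36 to 0.98. Emcn, Pecam1, Tek, Esam and Cdh5 had larger SDs than 93.7%, 91.1%, 90.4%, 88.9% and 82.7% of tested genes, and Vwf lay at 68.6%. Eng, Flt1 and Kdr lay lower, at 37.2%, 20.3% and 17.3%. These shares are descriptions, and dim probes have a larger spread on the log scale. In data simulated for this comparison over all tested genes, the test called 14 of 100 genes given a log2 difference of 1 and 58 of 100 given one of 2. These shares were not worked out for the members, whose median SD of 1.23 was above the 0.62 of all tested genes. For Emcn and Pecam1 the 95% intervals, -1.59 to 2.36 and -1.31 to 2.33, take in a difference of 1 in either direction.

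The arrays with high or low values were not the same for all members. The members' values centred within each group had a median Pearson r of 0.20 over 36 pairs and 12 arrays, from -0.48 to 0.86, and 27 pairs were positive. Tek and Esam had an r of 0.86, Flt1 had 0.73 with Tek and 0.72 with Esam, and Pecam1 and Vwf had 0.72. Pecam1 had -0.34 with Tek and with Kdr, and Cdh5 had -0.48 with Eng. These are descriptions over arrays that share each array's scaling and, in fours, a slide. Without the YFP- array of tumour 6, the lowest for both genes, the r of Pecam1 and Vwf was 0.08; those of Tek, Esam and Flt1 were 0.73 to 0.87. With the slide removed as well as the group, Tek and Esam had 0.69, Flt1 had 0.73 with Tek and 0.55 with Esam, and Pecam1 and Vwf had 0.79. The other Flt1 probe had -0.46 with Tek and -0.35 with Esam. With the slide removed as well these were 0.30 and 0.29, so the sign for that probe depended on the centring. Cdh5 had at most 0.35 with another member, Emcn, although with the slide removed it had 0.68 with Tek. These further values were computed after the first were seen. Among tested genes with established names, those with the highest r with Cdh5 were Ntf5 (0.83), Ap1ar (0.83), Slc22a18 (0.83), Zfyve1 (0.82) and Enam (0.81). They are the largest values picked from the whole test over 12 arrays, and Cdh5 was close to background, so no likeness is read from them. The members' own values, which were not picked, ran from -0.48 to 0.35.

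**Figure D4:**
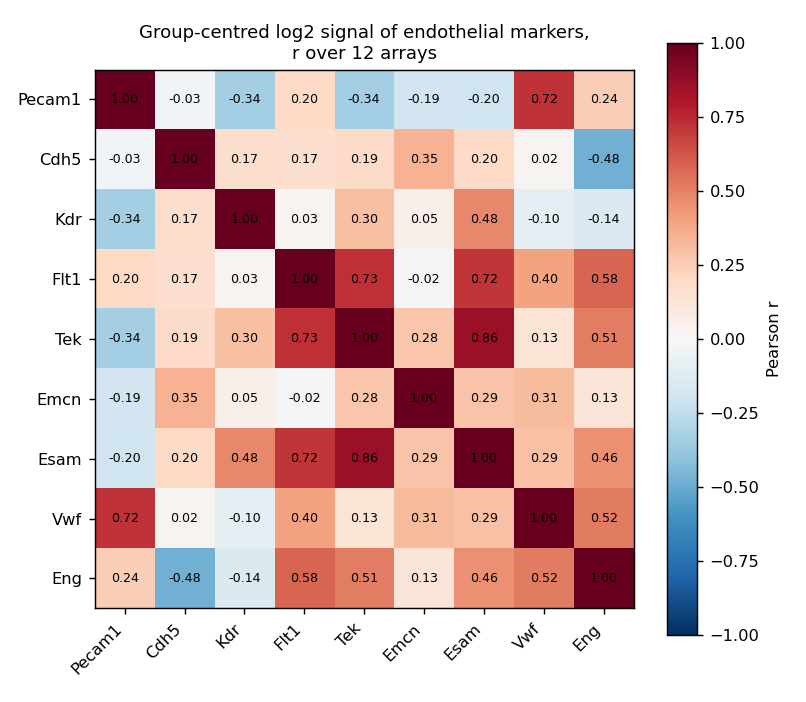
Pearson r between the 9 tested endothelial markers over 12 arrays, each gene centred on its mean in YFP+ and in YFP- arrays; red is positive and blue negative. The highest values are those among Tek, Esam and Flt1 (0.72 to 0.86) and of Pecam1 with Vwf (0.72), the last of which is 0.08 without the YFP- array of tumour 6.

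Genes of the VEGF, angiopoietin and apelin pathways, with the angiopoietin-like genes Angptl2 and Angptl4, also gave no call. Of 15 in this list, 11 were tested and 0 were called, beside 1.75% of all genes. Of the 11, 9 were lower and 2 higher in YFP+ macrophages, where 52.8% of all genes were lower, and the median difference was -0.27. The ligands Vegfa, Vegfb and Pgf, which bind VEGFR1, differed by -0.27, -0.09 and 0.56 (adjusted p from limma 0.824, 0.941 and 0.711). The co-receptors Nrp1 and Nrp2 differed by -0.50 and 0.05, and the angiopoietin Angpt2 by -0.12. Vegfc, a ligand of the lymphatic VEGF receptor, and Ptprb, the phosphatase that acts on TIE2, differed by -1.72 and -1.99, both with few YFP+ arrays above background (3 and 2 of 6). Angptl4, an inhibitor of lipoprotein lipase, had the smallest p of the list at a difference of -1.23 (SE 0.36), with an adjusted p of 0.133, which was 0.0058 with the slide as a block, 0.058 with slide and tumour as blocks, and 0.740 with array brightness as a covariate (difference -0.48). Angptl2 and the apelin receptor Aplnr differed by -1.54 and -0.09, and neither passed.

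In a longer list of 50 other genes of endothelial cells the calls all ran one way. Of 38 tested, 3 were called lower in YFP+ macrophages and 0 higher, beside 1.41% and 0.334% of all genes. The differences of 27 were negative, where 52.8% of all genes had a negative one, and the median was -0.33. A lean to negative signs was not particular to this list, as 14 of the 16 macrophage markers were negative, with a median of -0.13. The 3 were Tm4sf1, a tetraspanin-like surface protein, Tspan7, a tetraspanin, and Aqp1, a water channel. Tm4sf1 averaged -0.09 in YFP+ and 3.01 in YFP- macrophages, a difference of -3.10 (SE 0.37, adjusted p from limma 0.001). Tspan7 differed by -3.34 (SE 0.53, adjusted p 0.006) and Aqp1 by -3.30 (SE 0.55, adjusted p 0.008). Tm4sf1 is also made by carcinoma cells and Aqp1 by red cells, and neither is specific to vessels. All 3 differences were negative on each slide and with array brightness as a covariate, where Tm4sf1, Tspan7 and Aqp1 had -3.09, -3.30 and -3.63 but no longer passed (adjusted p 0.195, 0.297 and 0.275). Vcam1, an adhesion molecule of activated endothelium that macrophages and stromal cells also carry, differed by -1.01 (SE 0.26) and did not pass at an adjusted p of 0.082.

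Among 20 transcription factors known from endothelium, 12 were tested and Mecom alone was called, where 1.75% of all genes were. Mecom, a zinc-finger factor of blood stem cells, endothelium and several epithelia, was called through 1 of its 2 probes, at chr3:29876185-29876244, which was above background on 0 of 6 YFP+ and 6 of 6 YFP- arrays. By that probe it was at least 4.90-fold lower in YFP+ than in YFP- macrophages (adjusted p from limma 2.1e-04), a bound that sets the YFP- mean against the higher, on each YFP+ array, of the probe's own signal and the dimmest signal well above background. The fitted means were -7.02 in YFP+ and -2.80 in YFP-, a difference of -4.22 that was -1.94 with normexp (adjusted p 0.001). On 5 of the 6 YFP+ arrays the probe carried a surrogate value, so the fitted YFP+ mean is no measured level. The other Mecom probe, at chr3:30135491-30135550, was above background on 4 of 6 YFP+ and 2 of 6 YFP- arrays and differed by -0.31 in the fit of every probe (95% interval -2.16 to 1.54, adjusted p 0.897). With the mean of both probes the difference was -2.27 (adjusted p 0.025). The other factors had 0 calls, and the list's median was -0.09.

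The factors and surface genes too dim to test were read by detection alone, a comparison chosen after the values were seen. Across the VEGF and angiopoietin, transcription factor and other endothelial lists, 24 genes were not tested, and 6 of them were above background on no array. Of the other 18, 15 were detected on more YFP- than YFP+ arrays and 3 on more YFP+ arrays, or 83.3% and 16.7%. Over all 5543 untested genes and features with some detection the shares were 44.7% and 40%. Sox18 and Sox17, SOX factors of vascular endothelium, were detected on 0 YFP+ arrays and on 3 and 2 YFP- arrays. Ecscr and Ramp2, an endothelial surface protein and an adrenomedullin co-receptor, were detected on 0 YFP+ and 3 YFP- arrays each. Nos3, endothelial nitric oxide synthase, went the other way, on 4 YFP+ and 1 YFP- arrays. No p is given for these shares, and each rests on a few arrays near background.

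Markers of other cells were read beside the endothelial ones. Over all tested genes, 1.41% were called lower and 0.334% higher in YFP+ macrophages. Of 14 fibroblast markers, 10 were called lower and 0 higher, with a median difference of -2.13. The mean of the list was -1.22 to -0.65 on YFP+ arrays and 0.32 to 1.61 on YFP- arrays. Of 11 tested epithelial markers, 6 were lower, with a median of -2.11 and list means of -2.52 to -0.91 on YFP+ and -0.34 to 0.69 on YFP- arrays. Of 6 tested red cell markers, 4 were lower, with a median of -2.10, and of 12 acinar markers 1 was lower, with a median of -1.58. The list means of the fibroblast and epithelial markers did not overlap between the groups. Those of the acinar markers did, at -2.54 to 0.19 on YFP+ and -1.89 to 2.10 on YFP- arrays. The red cell list means met at their edges, the highest YFP+ value lying just above the lowest YFP- value. The endothelial members overlapped as well, with list means of -3.67 to -2.19 on YFP+ and -3.39 to -1.94 on YFP- arrays. The part of these other markers in the calls of Tm4sf1, Tspan7, Aqp1 and Mecom was not tested.

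Mural cells, the pericytes and smooth muscle that wrap vessels, lay between. Of 12 tested markers 1 was called lower, where 1.41% of all genes were, the proteoglycan Cspg4 (difference -2.44, SE 0.45, adjusted p from limma 0.016). The differences of 10 were negative, beside 52.8% of all genes, with a median of -1.19. Cspg4 no longer passed with slide and tumour as blocks (adjusted p 0.089) or with array brightness as a covariate (0.336). The contractile genes Acta2 and Cnn1 differed by -1.66 and -1.14 and did not pass, at adjusted p of 0.252 and 0.164. Of 12 tested platelet markers 0 were called, with 6 differences of each sign and a median of 0.08; the platelet chemokine Pf4, which macrophages also make, differed by -0.43 (adjusted p 0.419). Of 6 lymphatic markers 2 were tested and both were negative; Lyve1, a hyaluronan receptor that some macrophages also carry, differed by -0.98 and did not pass at an adjusted p of 0.253.

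**Figure D5:**
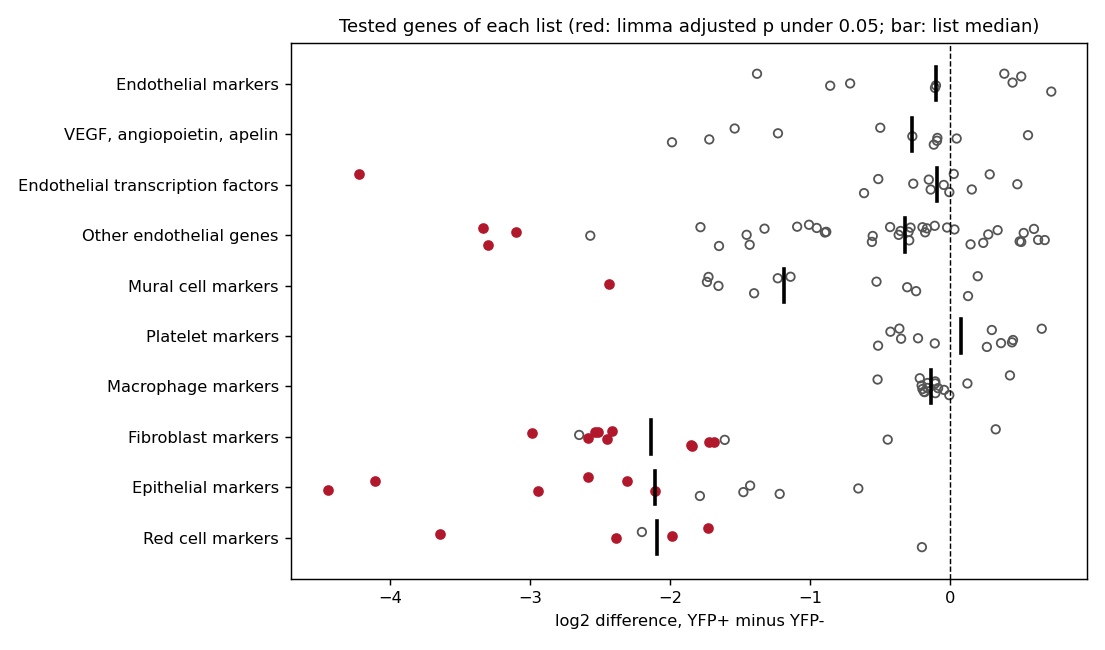
Difference of each tested gene, YFP+ minus YFP-, on the log2 scale, by list; red points have a limma adjusted p under 0.05 and the bar is the list median. The endothelial markers have 0 red points and a median of -0.10, while the fibroblast, epithelial and red cell lists have medians of -2.13, -2.11 and -2.10.

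Promoter sequence was searched for motifs of factors that act in endothelium. Kdr, Flt1, Tek, Tie1, Emcn and Eng had a promoter in the RefSeq table (GRCm38.p6, 6 of 10 members, windows of 300 bases around the gene start), and both strands were read. The ETS core AGGAAG was in 4 of the 6, those of Flt1, Tie1, Emcn and Eng, or 66.7%, where 35.4% of all 32851 windows held it. The KLF core CACCC was in 5, or 83.3%, against 57.5% of all. The GATA motif AGATAA was in that of Tek only, and the SOX motif ACAATG and the AP-1 motif TGANTCA were in none of the 6, where 11.2%, 12.6% and 7.81% of all windows held them. A match of a few letters is a description of the sequence and no site of binding.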

How the data were processed

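RNA of 6 YFP+ and 6 YFP- samples was amplified, labelled with Cy5 and hybridised to 1-colour Agilent arrays, per the labels' protocols. The deposited scanner files hold intensity values extracted with Agilent Feature Extraction 11.5.1.1, per the submitters' processing notes, with the software's background-corrected processed signal for each spot, per the file headers. The authors also deposited a table of log2 values; its column medians were 8.83 and its ranks followed the log2 processed signal of each array (Spearman 0.9999 or above), so it was used only as an alternative. Its scale is log2 and its normalization is not given in the sources used here. Of the other file fields (flags and positions), the deposited well-above-background, outlier and surrogate flags were used.

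The 1377 control spots and outlier spots were left out, the spots of a probe were averaged, and log2 values were set relative to the 75th percentile of their array. A probe entered the test when 6 or more of the 12 arrays had it well above background (25434 probes). The passing probe with the highest mean stood for a gene. With R 4.3.3, the lmFit and eBayes functions of limma 3.58.1 (2 groups, no covariate) tested 20370 genes, adjusted by Benjamini-Hochberg at 0.05; a second fit took every probe without the filter. Intervals are 95%. The number of arrays limits the precision, and no spot was saturated. On simulated data of these arrays, 4 of 20170 unchanged genes were called.

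Genes named beside the members were all tested ones of the VEGF and angiopoietin list. From each other vascular list came those with an unadjusted p under 0.05, at most 4 by p. The 5 genes most correlated with Cdh5 were also named, with unnamed features and provisional names left out. The limit on p was added after the values were seen. Endothelial members and all lists were chosen with earlier results of these data known. Alternatives covered slide and tumour blocks, each slide alone, array brightness, background correction, scaling, filters, probe choice, variance settings and leaving out each array. The sample titles pair 1 YFP+ and 1 YFP- sample by tumour identifier; the r of the deviations of a pair from the group means was -0.30 to 0.37 over the 6 pairs. The fit described has no block, and the fits with the tumour as a block are alternatives. Member probes were matched by the gene name in the files. Other probes took the RefSeq symbol of their transcript where there was a match, and otherwise the name in the files. A RefSeq match was found for 28330 of the 39429 probes. Python 3.11.15, pandas 2.3.3 and matplotlib 3.10.9 were used for tables and figures. The proteins of the members were not analysed here.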

Additional observations from a re-analysis of the deposited data

Results flagged for a closer look

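Of 76 groups of 6 arrays examined for the named genes, 4 had an array whose gap to its neighbour was a larger share of the group's range than the 95% critical value of Dixon's test allows; chance gives about 1 in 20. Pecam1 on the YFP- array of tumour 6 had a relative signal of -5.32, where the other YFP- arrays had -1.47 to -0.17 (gap over range 0.748). Angpt2 on the YFP- array of tumour 2 had -5.91, where the other YFP- arrays had -3.00 to -1.43 (gap over range 0.648). Mecom on the YFP+ array of tumour 6 had -5.65, above the -7.44 to -7.17 of the other YFP+ arrays (gap over range 0.851), and was still not well above background. Of the 6 YFP+ values of this probe 5 were surrogates, so the gap is not one among measured signals. Slc22a18 on the YFP+ array of tumour 4 had -7.35, where the other YFP+ arrays had -2.36 to 0.49 (gap over range 0.636). This gene was picked for its r with Cdh5, which had its own lowest value, -7.42, on the same array. Its flag is therefore not independent of that choice. All 4 values were not well above background on their array.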

How the results depend on the processing

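The count of members called was 0 under every alternative run, and their median difference ran from -0.51 (slide 3 alone) to 0.63 (array brightness as a covariate) and from -0.17 to -0.0025 when each array was left out. The count of genes called over the array, 356, was 556 with the slide as a block, 536 with normexp, 233 for probes above background on all 12 arrays, 562 and 141 at adjusted p under 0.1 and 0.01, 12 with brightness as a covariate and 0 on each single slide; leaving out each array gave 266 to 383. Brightness moved with the group (r 0.84). With the tumour number as a replicate block, fixed or random, the count was 296 or 431, and with slide and tumour number as blocks it was 201; the members had 0 calls under each. The tumour block alone changed no call of a named gene. Tm4sf1, Tspan7, Aqp1, Cspg4 and Mecom kept their calls without any 1 array. All 5 lost them on single slides, all but Mecom with brightness, and Cspg4 with slide and tumour blocks (adjusted p 0.089). Vcam1 passed with an intensity trend and robust variances (0.036). The sign turned in these cases, and the cause was not tested. On slide 1, Flt1 was 0.013 and Ptprb 0.78. On slide 2, Pecam1 was -1.04, Cdh5 0.90, Kdr 0.092, Nrp2 -0.026, Angpt2 0.91, Aplnr 0.40, Ap1ar 0.84 and Slc22a18 2.20. On slide 3, Emcn was -2.46, Vwf -0.51, Vegfa 0.10, Vegfb 0.059, Nrp2 -0.13, Angpt2 0.053, Zfyve1 -0.46 and Enam -0.33. With brightness, Flt1 was 0.65, Tek 1.95, Esam 0.63, Vegfa 0.59, Vegfb 0.46, Vegfc 0.49, Aplnr 0.56, Ntf5 0.086, Ap1ar 0.32 and Slc22a18 0.84. With normexp, Emcn was -0.16 and Enam -0.087. With median centring, Kdr was 0.11, Flt1 0.10, Vegfb 0.11, Angpt2 0.091 and Aplnr 0.12. With quantile normalization Flt1 was 0.12 and Angpt2 0.014. With the deposited values Flt1 was 0.12 and Angpt2 0.015. With the mean of a gene's probes, Kdr was 0.38 and Ap1ar 0.042. Leaving out each array gave -0.27 to 0.76 for Pecam1, -0.16 to 0.98 for Emcn, -0.22 to 0.0014 for Flt1, -0.72 to 0.18 for Angpt2, -0.27 to 0.081 for Aplnr, -0.052 to 0.15 for Nrp2 and -1.51 to 0.22 for Slc22a18. Signal over background limits Cdh5, Tie1, Esam, Tek, Emcn and Pecam1, and the Kdr and Flt1 probes not used for the gene, all of which were undetected on some arrays.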
